A study of Homo sapiens with 8 samples.

Results

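The G1 cyclins, their kinases and the proteins that act on them most directly were examined as a set of 10 genes in RNA sequencing libraries of PC3, an established human prostate cancer cell line. The members were chosen by gene symbol, 10 of the 58735 genes in the deposited table: the D cyclins CCND1, CCND2 and CCND3, the E cyclins CCNE1 and CCNE2, the kinases CDK2, CDK4 and CDK6, the phosphatase CDC25A and the ubiquitin ligase receptor SKP2. There were 4 libraries labelled siPRMT7, whose genotype label reads PRMT7 knockdown, and 4 labelled siCtrl, labelled WT. Both groups were transfected by lipofection and cultured for a further 48 h, and poly(A) RNA was sequenced. The series title names the arginine methyltransferase PRMT7 and the cell cycle, so the comparison asks how G1 transcripts stood when PRMT7 was targeted. Sample titles carry the prefix si and library names the prefix sh, and the labels do not give the RNA used, a clone or the culture each replicate came from. The p-values therefore measure the spread between these libraries, which may be technical.

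Passage through G1 is driven by D cyclins, which bind CDK4 or CDK6 and begin the phosphorylation of the retinoblastoma protein. E2F transcription factors are then released and raise the transcripts of S phase genes, among them CCNE1, CCNE2 and CDC25A. Cyclin E activates CDK2, CDC25A strips the inhibitory phosphates from CDK2, and SKP2 directs the inhibitor p27 to the proteasome. In epithelial cells, D cyclin transcription responds to growth factor signalling.

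In these libraries CCND1 was by far the most abundant member, CCND2 was at or near 0, and no member passed the test between siPRMT7 and siCtrl libraries. CCND3 had 15.1 ± 0.5003 FPKM in siPRMT7 and 13.8 ± 0.222 FPKM in siCtrl libraries. CDC25A had 4.54 ± 0.438 against 5.26 ± 0.2202 FPKM, and CDK2 had 7.83 ± 0.528 against 8.80 ± 0.281 FPKM (SD, n = 4 each). FPKM is fragments per kilobase of gene length, scaled to library size. The length of each member is that of all its annotated exons together, which can exceed the transcript present. Comparisons of level between genes, and shares and ratios built on them, are therefore approximate. In a bulk library, fewer cells in a phase and less RNA per cell cannot be told apart.

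Depth was even, 14526030 to 15724862 fragments per library. siPRMT7 replicate 2 stood apart, at 28.4 on the first principal component (31.4% of the variance), where the other 7 libraries lay between -11.9 and 7.36. The larger shifts without it are given with each result. PRMT7 itself had 4.62, 4.31, 5.01 and 4.82 FPKM in siPRMT7 replicates 1 to 4, and 5.24, 4.86, 5.10 and 5.25 FPKM in siCtrl replicates 1 to 4. The groups overlapped, the means differed by -8.29% of the siCtrl mean, and the two-sided exact permutation p was 0.0571, where the smallest possible is 0.0286. Every direction given for siPRMT7 libraries is a direction for libraries with that label. The prostate cancer line was checked by its markers. The keratins KRT8 and KRT18, VIM, CD44 and EPCAM were all present (group means 7.38 to 134 FPKM). KLK3, the gene of prostate-specific antigen, which PC3 is known to lack, had 0 fragments in all 8 libraries, and the prostate protease gene TMPRSS2 lay between 1.68 and 2.19 FPKM. Of 7 markers of other cell types, CD3E was at 0 and PTPRC, DCN and VWF reached at most 0.194 FPKM, whereas COL1A1, COL3A1 and PECAM1 lay between 1.7 and 7.53 FPKM, with overlapping groups, and the part of such transcripts in the results was not tested.

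The promoters of CDC25A and CCND3 are shown because these were the 2 members whose groups did not overlap, in opposite directions. Sequences are RefSeq's on GRCh38.p14, 250 bases before to 50 after the start, and capitals mark an E2F word or a GC box. CDC25A is shown from chr3:48188368-48188667 and CCND3 from chr6:42048639-42048938, both on the minus strand. The CDC25A start lies 15 bases from the gene start in the annotation and the CCND3 start 1669 bases from it, so the CCND3 window belongs to a start inside the annotated gene.
CDC25A: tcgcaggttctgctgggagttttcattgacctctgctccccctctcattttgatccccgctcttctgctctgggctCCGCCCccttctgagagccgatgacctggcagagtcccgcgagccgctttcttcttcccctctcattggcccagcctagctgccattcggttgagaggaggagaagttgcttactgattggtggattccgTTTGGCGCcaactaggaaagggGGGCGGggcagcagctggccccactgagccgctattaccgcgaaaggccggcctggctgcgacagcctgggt
CCND3: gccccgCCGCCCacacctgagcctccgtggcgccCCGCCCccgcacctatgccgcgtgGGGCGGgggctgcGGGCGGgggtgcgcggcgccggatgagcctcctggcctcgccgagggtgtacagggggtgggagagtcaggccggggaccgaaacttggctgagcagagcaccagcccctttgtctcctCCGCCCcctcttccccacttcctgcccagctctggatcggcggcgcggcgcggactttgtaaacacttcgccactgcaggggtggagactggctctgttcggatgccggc

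Both strands were searched for 6 kinds of motif: the E2F words TTTCCCGC, TTTGGCGC, TTTCGCGC and TTTGCCGC, the GC box GGGCGG, the CCAAT box, the CHR words TTTGAA and TTCGAA, the AP-1 words TGACTCA and TGAGTCA, and the CRE words TGACGTCA and TAACGTCA. In the windows shown, no E2F word and GC box shared bases. An E2F word was found in 1 of the 6 members with a promoter in the table, CDC25A, beginning at base -44, against 3.31% of 34794 promoters of the same length. Only the exact words above were counted, so a promoter without one may still hold a site that differs from them. A GC box was found in 6 of 6, against 44.9% of all promoters. These 6 windows were 61 to 81% G and C, and the share over all promoters was not matched for this. The box occurred once in SKP2, at 2 places in CDC25A, at 3 each in CDK4 and CDK6, at 5 in CCND3 and at 7 in CCNE1. A CCAAT box was in 1 of the 6, CDC25A, against 34.6% of all promoters. CHR, AP-1 and CRE words were in 0 of the 6, against 16.4%, 4.96% and 2.18% of all promoters. CCND1, CCND2, CCNE2 and CDK2 had no entry.

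The members spanned a wide range of levels, and their order was the same in both groups: CCND1, CDK4, CCND3, SKP2, CDK2, CDC25A, CDK6, CCNE2, CCNE1 and CCND2. CCND1 ranked 84 among 13436 tested genes by mean FPKM in siPRMT7 and 68 in siCtrl libraries. CDK4 ranked 2429 and 2384, and CCNE1 ranked 12394 and 12647. Neighbours in the order had separate library ranges in each group, with 1 exception. CCNE2 and CCNE1 overlapped in both groups, and CCNE2 was the higher of the pair in 3 of 4 libraries of each group.

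**Figure D1:**
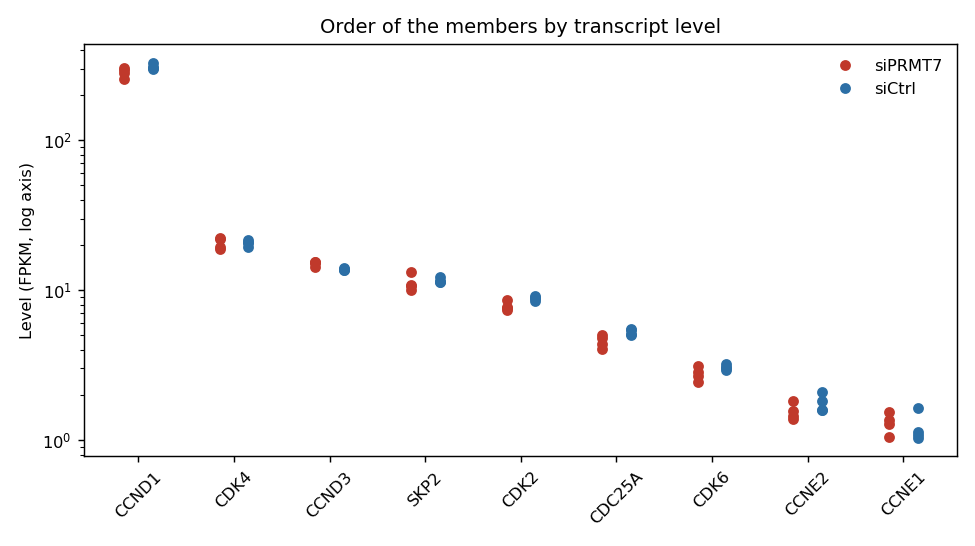
Level in FPKM (log axis) of the 9 members that passed the filter, with siPRMT7 libraries (red) left of siCtrl libraries (blue) and 1 point per library. CCND1 lies between 255 and 329 FPKM, every other member below 22.4 FPKM, and CCNE1 and CCNE2 overlap at the low end.

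CCND1 encodes cyclin D1, the D cyclin most often raised in carcinomas. CCND1 (ENSG00000110092, GRCh38 chromosome 11, 69641087 to 69654474, plus strand) had 301, 255, 283 and 293 FPKM in siPRMT7 replicates 1 to 4, and 298, 304, 306 and 329 FPKM in siCtrl replicates 1 to 4. siPRMT7 replicate 2 was the lowest of all 8 libraries and siCtrl replicate 4 the highest, and the groups overlapped through siPRMT7 replicate 1. The means were 283 ± 20.3 and 309 ± 13.4 FPKM (SD, n = 4 each), a log2 fold change of -0.13 (SE 0.0621, 95% interval -0.27 to 0.01) that did not pass (limma adjusted p = 0.398). Without siPRMT7 replicate 2 it was -0.08, and without siPRMT7 replicate 1 it was -0.16 (limma adjusted p = 0.205). On the TPM scale it was -0.17 (limma unadjusted p = 0.0485, adjusted p = 0.371). By voom it was -0.13 (limma unadjusted p = 0.0432, adjusted p = 0.335). The CCND1 groups no longer overlapped without siPRMT7 replicate 1 or without siCtrl replicate 1. Between 18465 and 23488 fragments lay behind each value, a counting error of at most 0.736%, well under the 7.18% spread among siPRMT7 and the 4.32% among siCtrl libraries. CCND1 shares 497 of its 4830 exonic bases with LTO1 on the opposite strand, at 6.65 ± 0.177 FPKM in siPRMT7 and 6.44 ± 0.62 FPKM in siCtrl libraries.

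CCND3 encodes cyclin D3, which shares its partners CDK4 and CDK6 with cyclin D1. CCND3 (ENSG00000112576, chromosome 6, 41934933 to 42050357, minus strand) had 14.3, 15.3, 15.1 and 15.5 FPKM in siPRMT7 replicates 1 to 4, and 14.04, 13.5, 13.6 and 13.8 FPKM in siCtrl replicates 1 to 4. Every siPRMT7 value was higher than the highest siCtrl value. On the log2 scale the difference was 0.12 (SE 0.0392, 95% interval 0.03 to 0.21), with an unadjusted p of 0.0133 and a limma adjusted p of 0.284, so CCND3 did not pass. Without each of the 8 libraries in turn the log2 fold change ran from 0.11 to 0.14. Leaving out a library cannot make separate groups overlap, so that was no check of the separation. On the TPM scale, which brings every library to one total, the groups overlapped and the log2 fold change was 0.09 (limma unadjusted p = 0.0862). The difference in CCND3 level was 9.38% of the siCtrl mean, against SDs of 3.32% in siPRMT7 and 1.61% in siCtrl libraries. Counting error alone was 2.76% in siPRMT7 and 2.85% in siCtrl libraries, so the siCtrl SD was smaller than counting alone would give.

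CCND2, the gene of cyclin D2, was not detectable above the counting floor. CCND2 (ENSG00000118971, chromosome 12, 4273772 to 4305350, plus strand) had 0 fragments in 6 of the 8 libraries, 1 fragment in siPRMT7 replicate 4 and 3 in siCtrl replicate 1. A floor of 3 fragments corresponds to 0.0262 to 0.0289 FPKM in these libraries, so no fold is given. CCND2 shares 989 of its 7157 exonic bases with AC008012.1 on the same strand and 126 with CCND2-AS1 on the opposite strand. The part of these shared bases in the CCND2 counts was not tested. CCND2 was the 1 member that did not pass the filter on low values, and 9 of 10 were tested.

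Summed over the 3 D cyclin genes, CCND1 made up nearly the whole pool. CCND1 took 95.5, 94.3, 94.9 and 95.0% of the summed D cyclin FPKM in siPRMT7 replicates 1 to 4, and 95.5, 95.7, 95.7 and 96.0% in siCtrl replicates 1 to 4. CCND3 took 5.08 ± 0.467% in siPRMT7 and 4.27 ± 0.186% in siCtrl libraries (SD, n = 4 each), from 4.55 to 5.69% and from 4.04 to 4.5%. The share of CCND3 did not overlap between groups, although siPRMT7 replicate 1 lay just above siCtrl replicate 1. These shares compare levels per length of annotated exons within a library. They depend on the lengths used and do not depend on scaling between libraries.

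**Figure D2:**
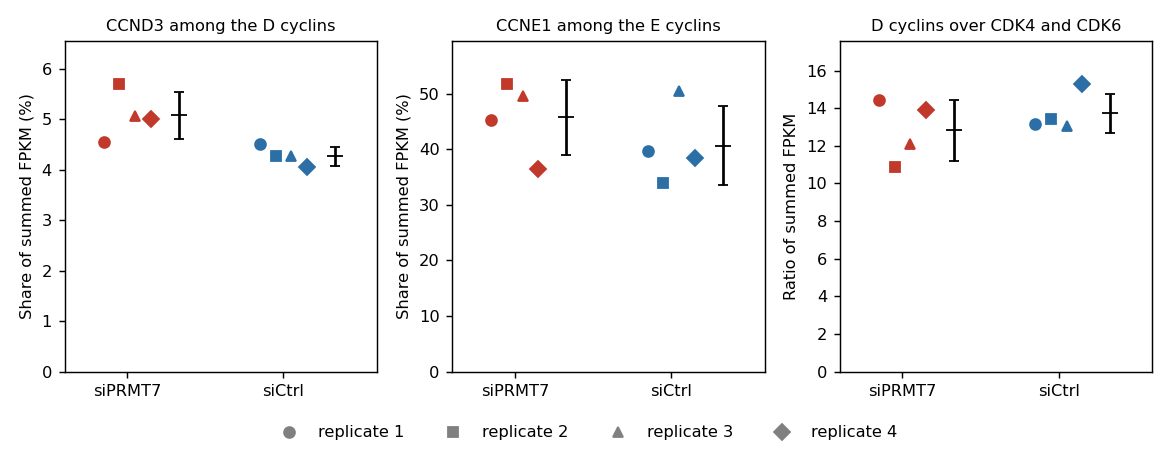
Share of CCND3 in the summed D cyclin FPKM (left, %), share of CCNE1 in the summed E cyclin FPKM (middle, %), and summed D cyclin FPKM over summed CDK4 and CDK6 FPKM (right), with siPRMT7 left of siCtrl, 1 marker per library and the mean with SD beside it. The CCND3 share is 4.55 to 5.69% in siPRMT7 and 4.04 to 4.5% in siCtrl libraries, and the other quantities overlap.

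CDK4 and CDK6, the partners of the D cyclins, differed in level, and CDK4 was the larger of the pair. CDK4 (ENSG00000135446, chromosome 12, 57747727 to 57756013, minus strand) had 18.7, 22.4, 21.9 and 19.3 FPKM in siPRMT7 replicates 1 to 4, and 20.8, 20.5, 21.5 and 19.3 FPKM in siCtrl replicates 1 to 4. The siPRMT7 libraries held both the lowest and the highest value, and their spread enclosed the siCtrl libraries. For CDK4 the estimate was 0.00 on the log2 scale (95% interval -0.14 to 0.15, limma adjusted p = 0.996), an interval that as a fold on the FPKM + 1 scale is 0.905 to 1.11. Its sign turned in some alternatives, with values from -0.04 to 0.04. CDK4 shares 1369 of its 3168 exonic bases with TSPAN31 on the opposite strand, which had 3.9 ± 0.215 FPKM in siPRMT7 and 3.58 ± 0.28 FPKM in siCtrl libraries. The sources used here do not say if strand was used in counting, and the part of these shared bases in the CDK4 values was not tested.

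CDK6 (ENSG00000105810, chromosome 7, 92604921 to 92836594, minus strand) had 3.13, 2.42, 2.68 and 2.85 FPKM in siPRMT7 replicates 1 to 4, and 2.93, 3.21, 3.02 and 3.09 FPKM in siCtrl replicates 1 to 4. siPRMT7 replicates 2, 3 and 4 lay below every siCtrl library and replicate 1 did not. The log2 fold change was -0.11 (95% interval -0.27 to 0.05, limma adjusted p = 0.4999), -0.06 without siPRMT7 replicate 2, -0.16 without siPRMT7 replicate 1 and -0.17 on the TPM scale. CDK4 made up 88.0 ± 2.03% of the summed CDK4 and CDK6 FPKM in siPRMT7 and 87.0 ± 0.788% in siCtrl libraries. The summed D cyclin FPKM was 12.8 ± 1.63 times that of these kinases in siPRMT7 and 13.7 ± 1.04 times in siCtrl libraries (SD, n = 4 each), with overlapping groups.

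The E cyclins were the least abundant members that passed the filter. CCNE1 (ENSG00000105173, chromosome 19, 29811898 to 29824308, plus strand) had 1.29, 1.54, 1.36 and 1.05 FPKM in siPRMT7 replicates 1 to 4, and 1.04, 1.08, 1.63 and 1.14 FPKM in siCtrl replicates 1 to 4. The highest value was siCtrl replicate 3 and the groups overlapped. Behind them stood 39 to 63 fragments per library. The spread of CCNE1, 15.6% in siPRMT7 and 22.7% in siCtrl libraries, was close to counting error alone in siPRMT7 (14.1%) and above it in siCtrl (14.5%). The 95% interval of its log2 fold change ran from -0.19 to 0.31 (estimate 0.06, limma adjusted p = 0.826), which as a fold on the FPKM + 1 scale is 0.875 to 1.24 and understates the range in FPKM of so low a gene. By voom the CCNE1 estimate was 0.11. Without 1 library it ran from 0.01 (without siPRMT7 replicate 2) to 0.14 (without siCtrl replicate 3), with 0.02 without siCtrl replicate 1, 0.03 without siCtrl replicate 2 and 0.12 without siPRMT7 replicate 4.

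CCNE2 (ENSG00000175305, chromosome 8, 94879770 to 94896678, minus strand) had 1.55, 1.44, 1.38 and 1.82 FPKM in siPRMT7 replicates 1 to 4, and 1.57, 2.09, 1.59 and 1.82 FPKM in siCtrl replicates 1 to 4. siPRMT7 replicates 1, 2 and 3 were below every siCtrl library, and replicate 4 was level with siCtrl replicate 4. The log2 fold change was -0.12 (95% interval -0.33 to 0.09, limma adjusted p = 0.565), with 91 to 147 fragments per library. Without siCtrl replicate 2, which held the highest value, it was -0.07, and on the TPM scale and by voom it was -0.20. The groups of CCNE2 no longer overlapped without siPRMT7 replicate 4, where it was -0.17. CCNE2 shares 1633 of its 4397 exonic bases with genes on the opposite strand, among them INTS8 at 10.4 ± 0.481 FPKM in siPRMT7 and 10.7 ± 0.404 FPKM in siCtrl libraries, and their part in the CCNE2 values was not tested. CCNE1 made up 45.8 ± 6.74% of the summed E cyclin FPKM in siPRMT7 and 40.7 ± 7.04% in siCtrl libraries, and the groups overlapped.

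CDK2 is the partner of cyclin E. CDK2 (ENSG00000123374, chromosome 12, 55966769 to 55972784, plus strand) had 7.65, 7.74, 8.58 and 7.35 FPKM in siPRMT7 replicates 1 to 4, and 8.41, 9.07, 8.87 and 8.85 FPKM in siCtrl replicates 1 to 4. siPRMT7 replicates 1, 2 and 4 were below every siCtrl library, and replicate 3 was above siCtrl replicate 1 alone. The CDK2 spread was 6.75% in siPRMT7 and 3.19% in siCtrl libraries, where counting error alone was 4.67% and 4.36%. The difference on the log2 scale was -0.15 (SE 0.0525, 95% interval -0.27 to -0.03), with an unadjusted p of 0.018 and a limma adjusted p of 0.291, so CDK2 did not pass. On the TPM scale it was -0.20 (unadjusted p = 0.00666, limma adjusted p = 0.238) and the groups no longer overlapped. The unadjusted p of CDK2 was above 0.05 with siCtrl replicate 2 (0.0513) or siPRMT7 replicate 4 (0.0543) left out. The E cyclins summed to 0.366 ± 0.0327 of the CDK2 FPKM in siPRMT7 and 0.339 ± 0.0226 in siCtrl libraries, again with overlap. CDK2 shares 654 of 3894 exonic bases with genes on the opposite strand, PMEL and AC025162.1, both at low levels here (PMEL 0.385 ± 0.0963 FPKM in siPRMT7 and 0.467 ± 0.0245 FPKM in siCtrl libraries).

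CDC25A encodes the phosphatase that activates CDK2. CDC25A (ENSG00000164045, chromosome 3, 48157146 to 48188402, minus strand) had 4.81, 4.35, 4.03 and 4.99 FPKM in siPRMT7 replicates 1 to 4, and 5.47, 5.01, 5.13 and 5.41 FPKM in siCtrl replicates 1 to 4. All 4 siPRMT7 libraries were below all 4 siCtrl libraries, with siPRMT7 replicate 4 just under siCtrl replicate 2. They stayed apart on the TPM scale. Leaving out a library cannot make separate groups overlap, so that was no check of the separation. The unadjusted p of CDC25A, however, was above 0.05 without siPRMT7 replicate 3 (0.0692), siCtrl replicate 1 (0.0626) or siCtrl replicate 4 (0.057). Its log2 fold change was -0.18 (SE 0.065, 95% interval -0.32 to -0.03), with an unadjusted p of 0.0234 and a limma adjusted p of 0.31, so CDC25A did not pass. The means differed by -13.5% of the siCtrl mean, and 249 to 358 fragments per library lay behind it, a counting error of 6.34% at the lowest. The CDC25A spread was 9.64% in siPRMT7 and 4.19% in siCtrl libraries, where counting error alone was 5.96% and 5.48%. CDC25A had no exonic bases in common with another gene. Its promoter, shown above, was the 1 with an E2F word among the 6 members with a promoter entry.

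SKP2 encodes the receptor through which a ubiquitin ligase marks p27 for destruction. SKP2 (ENSG00000145604, chromosome 5, 36151989 to 36184319, plus strand) had 10.8, 13.3, 10.1 and 10.6 FPKM in siPRMT7 replicates 1 to 4, and 11.4, 11.3, 11.5 and 12.2 FPKM in siCtrl replicates 1 to 4. siPRMT7 replicate 2 was the highest of all 8 libraries, and the other 3 siPRMT7 libraries lay below every siCtrl library. The log2 fold change was -0.05 (95% interval -0.23 to 0.12, limma adjusted p = 0.767). Without siPRMT7 replicate 2 it was -0.13 (unadjusted p = 0.0159, limma adjusted p = 0.28) and the groups did not overlap. It was -0.01 without siPRMT7 replicate 3, -0.03 without siPRMT7 replicate 4 or siCtrl replicate 4, and -0.10 on the TPM scale. siPRMT7 replicate 2 was also the lowest library for CCND1 and CDK6 and the highest in its group for CDK4 and CCNE1.

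**Figure D3:**
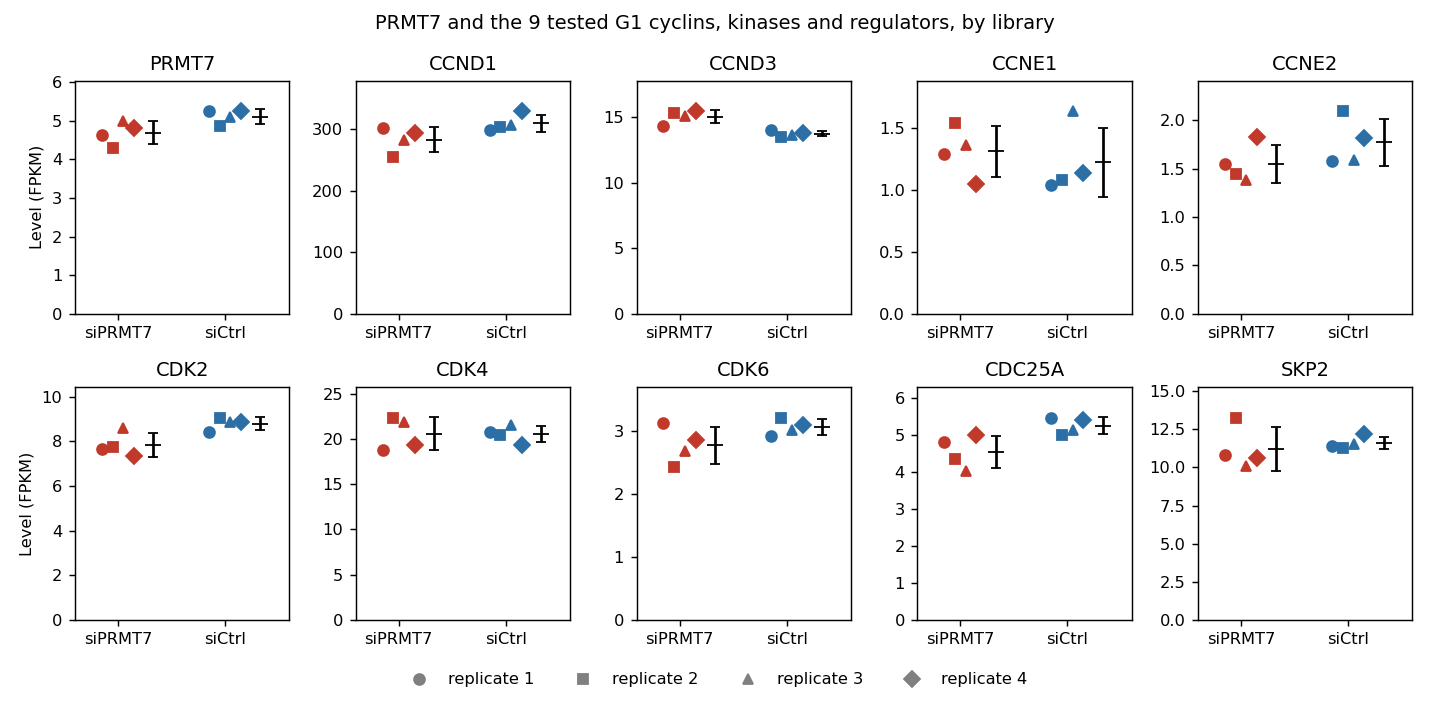
Level in FPKM of PRMT7 and of the 9 members tested, siPRMT7 (red) left of siCtrl (blue), 1 marker per library with its shape giving the replicate number, and the mean with SD in black. The groups are separate for CCND3 and CDC25A, and siPRMT7 replicate 2 (square) is the highest SKP2 value at 13.3 FPKM and the lowest CCND1 value at 255 FPKM.

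Across the set, 6 of 9 tested members had a lower mean log2 level in siPRMT7 than in siCtrl libraries and 3 a higher one, CDK4 among them, whose sign turned on the TPM scale and by voom. The members' median log2 fold change was -0.11. Over all 13436 genes tested 50.5% were lower and the median was -0.00154. None of the 9 members passed an adjusted p of 0.05 in limma, where 0.0149% of all genes tested did (2 genes, RSAD2 and RNU7-140P, both higher). At an unadjusted p under 0.05 there were 3 members, CCND3, CDK2 and CDC25A, where 13.2% of all genes tested reached that level, 5.49% lower and 7.67% higher. Of the 9 members 2 had groups that did not overlap, where 8.57% of all genes did not. With 9 members these counts are small, and the members were chosen as parts of one pathway and are not independent of each other. Members were also chosen with earlier results of these data known. The count at an unadjusted p under 0.05 was 4 without siPRMT7 replicate 2 and with voom on rebuilt fragments, and 5 without siPRMT7 replicate 1, where CCND1 and CDK6 were added. The share of all genes at that level was 13% without siPRMT7 replicate 2, 14.4% by voom and 20.8% without siPRMT7 replicate 1. It was 2 without siPRMT7 replicate 3 or 4 and without siCtrl replicate 1, 2 or 4, where 8.79 to 12.4% of all genes reached it. By voom 0 members passed an adjusted p of 0.05 as well.

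**Figure D4:**
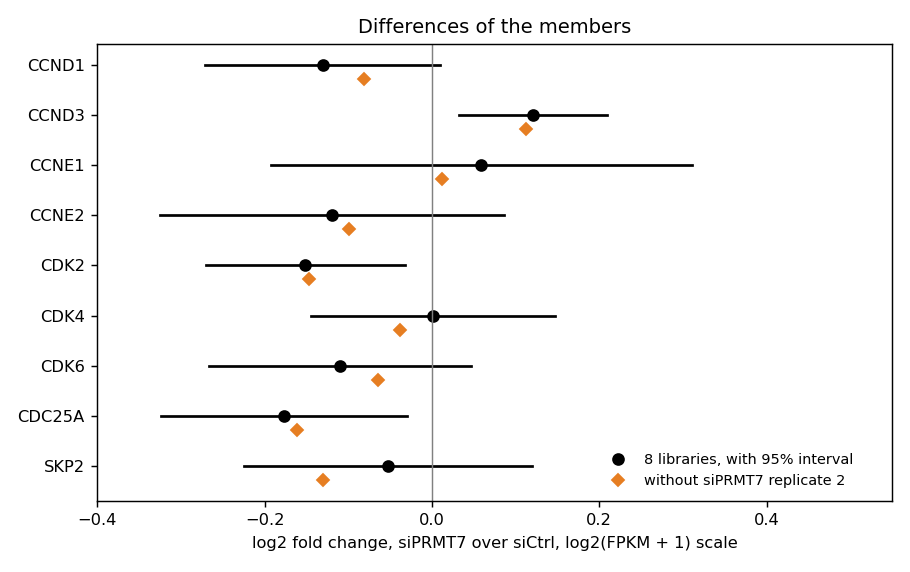
Log2 fold change of the 9 members tested, siPRMT7 over siCtrl on the log2(FPKM + 1) scale, with 95% intervals from limma (black), and the estimate without siPRMT7 replicate 2 (orange diamonds). The intervals of CCND3, CDK2 and CDC25A leave out 0, and the SKP2 estimate is -0.05 with and -0.13 without that library.

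Among tested genes with a symbol, those whose log2(FPKM + 1) followed CCND3 most closely over the 8 libraries were the non-coding RNAs APTR (Pearson r 0.973), SCAMP1-AS1 (0.973) and BISPR (0.97), then RHOT2 (0.965) and CYHR1 (0.963). CCND3 was taken because it had the smallest p of the members. These are the top 5 after genes with clone names were left out of the 13436 tested. They were picked for their r, and the libraries share the 2 groups, so the values are a description.

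The other genes of the G1/S pathway were read from 7 lists with 75 entries, of which 73 were tested. The lists were chosen with earlier results of these data known, so list counts set beside the share of all genes are a description. No entry of any list passed an adjusted p of 0.05 in limma. At an unadjusted p under 0.05, 7 of the 73 were lower and 8 higher, where 5.49% of all genes were lower and 7.67% higher. On the TPM scale the median of all genes was -0.04, and 6 of 8 CDK inhibitors were higher, 7 of 9 ubiquitin ligase parts lower and 5 of 5 S and G2/M genes lower. The share of all genes lower on that scale was not counted, so these TPM counts have no share to stand beside. Of 8 genes listed as CDK inhibitors, 7 were higher and 1, CDKN3, lower in siPRMT7 libraries (median log2 fold change 0.19). Over all 13436 genes tested 6645 were higher. At an unadjusted p under 0.05 in limma 5 were higher, where 7.67% of all genes were. Without siPRMT7 replicate 2, 6 of the 8 were higher (median 0.18). CDKN1A, which encodes p21, had 27.7 ± 1.59 FPKM in siPRMT7 and 23.2 ± 0.325 FPKM in siCtrl libraries (limma adjusted p = 0.133). CDKN1C had 3.13 ± 0.269 against 2.33 ± 0.365 FPKM, CDKN2A had 49.0 ± 7.13 against 39.3 ± 2.29 FPKM, and CDKN1B, whose product p27 is the SKP2 substrate, had a log2 fold change of 0.07.

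Of 13 genes of the RB and E2F axis 12 were lower and 1 higher (median -0.09), with 3 lower at an unadjusted p under 0.05, where 50.5% of all genes were lower and 5.49% lower at that level. The RB and E2F median was -0.14 on the TPM scale. The repressor E2F7 had 22.8 ± 1.29 FPKM in siPRMT7 and 25.9 ± 0.634 FPKM in siCtrl libraries, and all 4 siPRMT7 libraries lay below (limma adjusted p = 0.218). The pocket protein genes RBL1, at 3.88 ± 0.304 against 4.56 ± 0.278 FPKM, and RB1, at 6.10 ± 0.32 against 6.76 ± 0.155 FPKM, also had groups that did not overlap, as had 8.57% of all genes. E2F1, the activating factor, had a log2 fold change of -0.03.

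Among cyclins of later phases and CDK1, 5 genes in all, 4 were lower (median -0.14), and 2 were lower at an unadjusted p under 0.05, where 5.49% of all genes were. Their median was -0.08 without siPRMT7 replicate 1 and -0.19 without siPRMT7 replicate 2. CDK1, the mitotic kinase, had 14.8 ± 1.6 FPKM in siPRMT7 and 18.0 ± 1.01 FPKM in siCtrl libraries (log2 fold change -0.27, limma adjusted p = 0.217). CCNA2, the S phase cyclin, had 9.33 ± 0.6995 against 10.6 ± 0.576 FPKM (-0.17, limma adjusted p = 0.293). CCNB2, a mitotic cyclin, had 9.23 ± 0.7004 against 10.1 ± 0.597 FPKM (-0.12, limma adjusted p = 0.427).

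The other 4 lists had medians of -0.03 to -0.01. Of 9 ubiquitin ligase parts that act on G1 cyclins or CDC25A 5 were lower and 4 higher (median -0.03, from -0.06 to 0.00 without 1 library), with RBX1 at 18.9 ± 2.94 FPKM in siPRMT7 and 15.9 ± 0.789 FPKM in siCtrl libraries and CUL3 at 6.44 ± 0.422 against 7.14 ± 0.407 FPKM. Of 10 genes of the CDK-activating kinase and of inhibitory phosphorylation 7 were lower and 3 higher (median -0.03), 9 were lower without siPRMT7 replicate 2 (median -0.06), and 0 had an unadjusted p under 0.05 in limma. CDK7, the kinase that activates CDKs, had 17.1 ± 2.47 FPKM in siPRMT7 and 14.8 ± 0.94 FPKM in siCtrl libraries, and the phosphatase CDC25B had 31.5 ± 0.338 against 33.04 ± 1.45 FPKM. Of 21 other cyclins and CDKs tested 11 were lower and 10 higher (median -0.01, and 0.01 without siPRMT7 replicate 2), with CDK14 at 3.74 ± 0.439 against 4.47 ± 0.41 FPKM and CCNL2 at 42.4 ± 1.89 against 37.5 ± 3.58 FPKM. Of 7 tested transcription factors known to act on CCND1 4 were lower and 3 higher (median -0.03), and JUN had 124 ± 7.01 FPKM in siPRMT7 and 106 ± 4.0006 FPKM in siCtrl libraries, with separate groups (log2 fold change 0.21, limma adjusted p = 0.191). STAT3 and CDK18 did not pass the filter on low values.

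**Figure D5:**
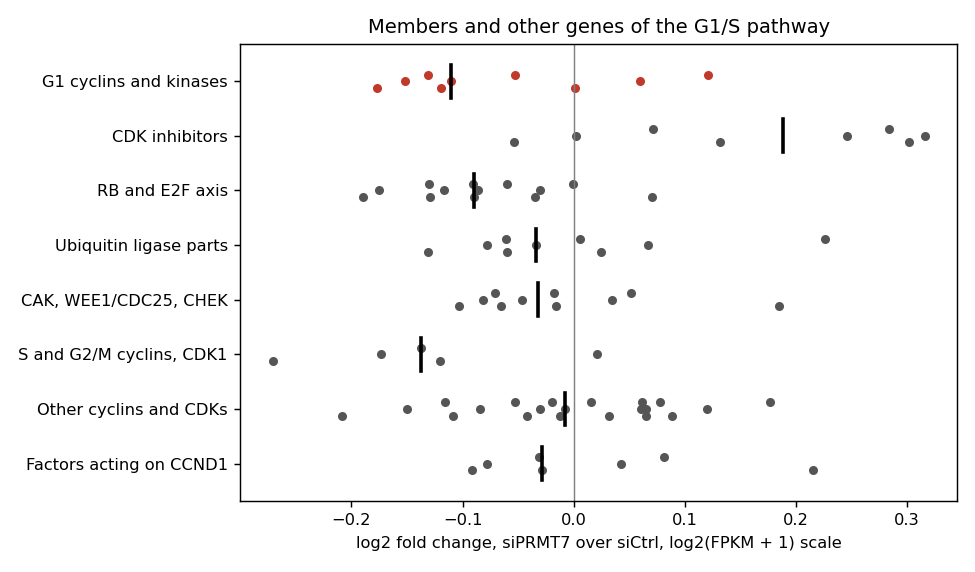
Log2 fold change, siPRMT7 over siCtrl on the log2(FPKM + 1) scale, of each tested member (red) and of each tested gene of the 7 pathway lists (grey), with the list median as a black bar. The medians are -0.11 for the members, 0.19 for CDK inhibitors, -0.09 for the RB and E2F axis and -0.14 for S and G2/M cyclins with CDK1.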

How the data were processed

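Poly(A) RNA libraries of PC3 cells were analysed, 4 labelled siPRMT7 and 4 siCtrl, grouped by sample title. Per the submitters' processing notes, the tools were featureCounts 1.6.3, HISAT2 2.1.0 and cutadapt 2.5. The build named there is mm10, whereas all 58735 genes are human, with the start, end and strand of GENCODE release 29 on GRCh38. The authors deposited FPKM values. FPKM multiplied by gene length was whole in steps of 1 fragment for 100% of values above 0 (tolerance 0.01), and the library size behind each column carried the median-ratio size factor, so libraries had been scaled to each other.

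Genes with at least 1 FPKM in at least 4 of 8 libraries (13436) were tested after adding 1 FPKM and taking log2, by limma's moderated test (limma 3.58.1, R 4.3.3; variance trend; two-sided), with Benjamini-Hochberg adjustment over all of them at 0.05. The scale understates fold changes of low genes. The fit was tested on simulated data. PRMT7 was tested by exact permutation over 70 assignments. Counting errors cover counting alone. Members and lists were chosen with earlier results of these data known. Named were all members, PRMT7 and up to 3 genes of each list by smallest p. The 5 genes with a symbol most like the member with the smallest p were also named. CDKN1B and E2F1 were named after their values were seen. Alternatives were pseudocounts of 0.1 and 0.5, filters, TPM scale, no trend, voom, a replicate block and leaving out each library. Some marker genes are not reported here.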

Additional observations from a re-analysis of the deposited data

Results flagged for a closer look

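Within groups of 4, a library far from the others was sought for PRMT7, the 9 tested members and the 6 ratios and shares, 32 groups in all, and chance gives such a library in about 1 of 20 groups. CCNE1 in siCtrl replicate 3 was at 1.63 FPKM, and the other siCtrl libraries were between 1.04 and 1.14 FPKM. The ratio of summed D cyclin FPKM to that of CDK4 and CDK6 was 15.3 in siCtrl replicate 4, and between 13.05 and 13.4 in the other siCtrl libraries. That library held the highest CCND1 value of the 8.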

How the results depend on the processing

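No member passed an adjusted p of 0.05 in limma in any of the 16 alternatives, and of 141 refitted member log2 fold changes 136 kept their sign. The other 5 were those of CDK4: -0.0398 on the TPM scale, -0.000625 by voom on rebuilt fragments, and 3 of the 8 values without 1 library, which ran from -0.0382 to 0.0427. Changing the filter, dropping the trend or adding the replicate block cannot change a log2 fold change, so these were no check of its sign. Over all genes 2 were called as reported, 1 with a pseudocount of 0.1 or FPKM at least 5, 5 with no filter, 14 by voom, 0 with the replicate block and 0 to 2 without 1 library. The number of members at an unadjusted p under 0.05 in limma was 3, and 2 to 5 without 1 library. In those fits 8.79 to 20.8% of all genes reached that level. On the TPM scale the number was also 3, with CCND1 in place of CCND3, where 13.4% of all genes reached that level. Groups did not overlap for 2 members, and for 2 to 4 without 1 library, where 10.7 to 20.3% of all genes had such groups. Leaving out a library cannot lower the count of such members. PRMT7 differed by -0.424 FPKM; on the TPM scale the difference was -2.14 TPM with an exact permutation p of 0.0286, the smallest possible, and without 1 library it ran from -0.529 to -0.297 FPKM. With the replicate block its exact permutation p was 0.125, also the smallest possible. Libraries of the same number deviated together only weakly (r from -0.0314 to 0.0613 over genes). Those of different numbers had r from -0.122 to 0.131. No pairing by number was visible, but such correlations cannot tell if cultures of the same number were handled together. The share of CCND1 among D cyclins differed by -0.81 points, siPRMT7 minus siCtrl, and by -0.986 to -0.608 without 1 library. The TPM scale cannot change a share within a library, so it was no check here. At the depth used, CCNE1 and CCNE2 values rest on at most 147 fragments per library. The causes of these changes were not tested.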
